A study of Mus musculus with 6 samples.

Results

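The genes described here are 10 mouse genes of the unfolded protein response and the amino acid stress response: Ddit3, Atf5, Atf4, Xbp1, Hspa5, Herpud1, Asns, Trib3, Chac1 and Ddit4. They were taken from 6 one-colour Agilent arrays as every probe whose array gene name was one of these symbols, which gave 11 probes for the 10 genes of 27827 gene names on the array. Trib3 has 2 probes and each other gene has 1. The arrays measured total RNA of Ebf1-/- pre-pro-B cells (Fr.A), kept on OP9 cells, a bone marrow stromal line, with the cytokines interleukin 7, Flt3 ligand and stem cell factor (10 ng/ml of each). Ebf1 is a transcription factor without which precursors do not become B cells, and the cells of both groups lack their own. In the Ebf1 virus group, 3 samples, the cells were infected with the retrovirus pMYs-Ebf1-IRES-EGFP, whose insert the sample titles name Ebf1beta. In the control virus group, 3 samples, they were infected with pMYs-IRES-EGFP, which encodes the fluorescent protein alone. Virus was made in Plat-E cells, and infected cells were sorted for EGFP after 24 h of culture. The comparison asks how these stress genes stand after Ebf1 is put back. The labels do not say whether replicates came from separate cultures or mice, so p-values measure the spread between these samples.

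The unfolded protein response is driven by 3 sensors in the membrane of the endoplasmic reticulum (ER), Perk, Ire1 and Atf6, which are held inactive by the chaperone Hspa5 until misfolded proteins draw it away. Perk and the amino acid sensor Gcn2 both phosphorylate the translation factor eIF2alpha, which slows protein synthesis while the transcription factor Atf4 is translated more. Atf4 protein then acts on genes of amino acid supply and on further transcription factors, so RNA arrays report its targets and not its own translation. Developing B cells use the same machinery, and Xbp1 is best known in this lineage for building the ER of antibody-secreting plasma cells.

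Ddit3, Atf5 and Herpud1 rose with the Ebf1 virus, by 1.48-fold to 2.06-fold, and Asns fell to a level 1.61-fold lower than with the control virus. Thus 4 of the 11 probes passed the test, an adjusted p under 0.05 in limma. Over the array, 4434 of 20453 tested probes passed, or 21.7%, with 11.5% higher and 10.2% lower. The groups did not overlap at 7 of the 11 probes, against 42.6% of all tested probes. Among the 10 genes, 5 had a fitted change above 0 and 5 below 0. The median log2 change of the 11 probes was -0.20, against -0.06 over all tested probes. Levels below are log2 signals relative to the 75th percentile of the same array, and a log2 change is Ebf1 virus minus control virus with its standard error (SE). Levels of different probes are not set against each other.

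All 11 probes were well above background on all 6 arrays, and no spot of theirs was saturated. The 75th percentile of signal was 316 to 364 in the Ebf1 virus group and 240 to 366 in the control virus group. The share of probes above background was 52.8%, 50.4% and 59.8% in Ebf1 virus replicates 1 to 3, and 50%, 46.3% and 50.2% in control virus replicates 1 to 3. Median deposited signals were 12.7, 12.3 and 19.7 in the same order with the Ebf1 virus, and 13.1, 7.62 and 9.07 with the control virus. Ebf1 replicate 3 was thus the highest array by both measures. The arrays lay on 3 slides, and only 1 slide held both groups (Ebf1 replicate 1 and control replicate 2). The Ebf1 probe A_51_P188054 had levels of 0.22, 0.40 and 0.27 with the Ebf1 virus, against 0.86, 0.10 and 0.36 with the control virus, and the other Ebf1 probe was not above background. The sources used here do not say whether either probe lies in the viral insert, so neither checks the labels. Of 10 lymphoid progenitor markers, 9 were above background on every array, Rag2 being the exception, and 2 of the 9 tested rose and 4 fell. The summed signal of the 10 was 222 to 245 times the array's 75th percentile with the Ebf1 virus. With the control virus it was 106 to 131 times. Most of the sum with the Ebf1 virus came from Ly6d, at levels of 7.38 to 7.54, against 4.52 to 5.18 with the control virus. Rag1 also rose (log2 change 0.86), and Kit, Il7r, Spn and Cd93 fell (-1.82, -1.69, -1.60 and -1.01). Of 18 markers of stromal feeder cells, 12 were tested and 3 rose. Fitted log2 changes of the 12 ran from 0.39 to 1.07, with a median of 0.58, against -0.07 over all tested genes. With all 18 summed, signal was 26.5 to 34.5 times the 75th percentile with the Ebf1 virus and 16.6 to 23.7 with the control virus. Postn, Lum and Dcn of that list were above background on no array. The sum of 8 myeloid and dendritic cell markers was 1.32 to 1.84 with the Ebf1 virus and 4.14 to 5.51 with the control virus, and of the 5 tested 1 was called higher and 3 lower. Of these 4, Csf1r (higher) and Siglech (lower) were above background on all 3 arrays of the group where they were high but on 2 of the other, and both calls were lost with normexp correction (adjusted p 0.0596 and 0.325). The part of these other cells in the results below was not tested, and fewer cells of a type and less RNA per cell cannot be told apart in such samples.

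The transcription factors of the response act through short promoter elements. The windows from 250 bases before to 50 bases after each annotated start were therefore searched for 3 known stress elements on both strands. The sequences are RefSeq's, build GRCm38.p6, and 11 windows matched the 10 genes, since Atf5 has 2. The ER stress element, CCAAT and CCACG with 9 bases between them, is bound by Atf6 with the factor NF-Y. It was present in 0.119% of 32851 windows and, among the 10 genes, in that of Hspa5, 65 to 47 bases before the start. The ER stress element II, ATTGG and CCACG with 1 base between them, can be bound by Xbp1 and Atf6. It was present in 0.0365% of windows and, among the 10 genes, in that of Herpud1. The C/EBP-ATF element TGATGNAA, a composite site for Atf4 with a C/EBP partner, was present in 3.97% of windows and in those of Asns, Chac1, Herpud1 and Trib3. None of these matches overlapped another. In the stretches below, which show the elements in place, capitals mark the matches, and each stretch runs 5' to 3' on the gene's strand.
Hspa5, ER stress element, chr2:34771995-34772073, plus strand: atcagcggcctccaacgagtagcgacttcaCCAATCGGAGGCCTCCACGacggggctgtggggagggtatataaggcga
Herpud1, C/EBP-ATF element reversed and then ER stress element II, chr8:94386287-94386417, plus strand: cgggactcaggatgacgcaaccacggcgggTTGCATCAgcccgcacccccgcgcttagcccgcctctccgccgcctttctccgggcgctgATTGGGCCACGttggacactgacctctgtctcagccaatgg
Asns, C/EBP-ATF element, chr6:7693210-7693262, minus strand: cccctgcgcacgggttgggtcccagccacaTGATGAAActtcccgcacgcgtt
Chac1, C/EBP-ATF element reversed, chr2:119351019-119351086, plus strand: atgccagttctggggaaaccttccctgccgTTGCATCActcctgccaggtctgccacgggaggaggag

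The Asns match lies 23 to 16 bases before the start, that of Chac1 193 to 186 bases before it, and those of Herpud1 begin 112 and 52 bases before it. The Trib3 match lies 15 to 22 bases after the start. The core of the Ebf1 site, TCCC and GGGA with 2 bases between them, was present in 0.904% of windows and matched none of the 11. The letters of 5 of the 10 genes' windows held no stress element. Of the 4 genes with the C/EBP-ATF element, Asns fell, Chac1 (-0.61) and Trib3 (-0.20 and -0.31 at its 2 probes) had fitted log2 changes below 0 without passing the test, and Herpud1 rose. The call of Herpud1 was lost in 5 of the 6 fits that left out 1 array. A match is a description of the letters and not of a bound site.

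**Figure D1:**
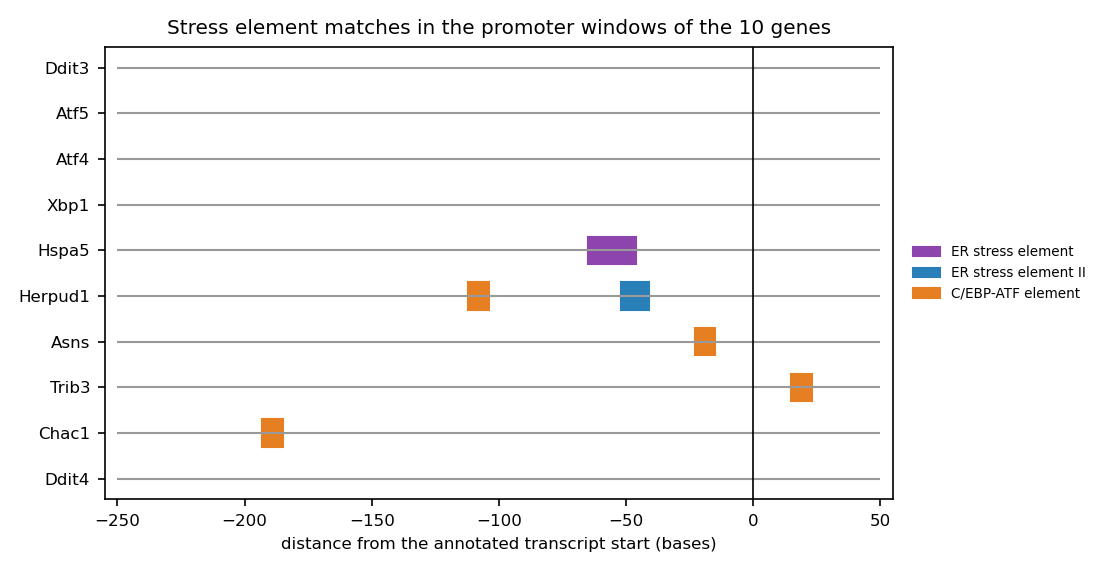
The horizontal axis gives the distance in bases from the annotated transcript start, with 1 line per gene, and coloured boxes mark matches to the 3 stress elements. Boxes appear for Hspa5, Herpud1, Asns, Trib3 and Chac1, and Herpud1 holds 2 kinds.

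Among the transcription factors, Ddit3 and Atf5 rose about 2-fold. Ddit3, also called Chop, is induced by Atf4 and promotes cell death under prolonged ER stress. Its probe, A_52_P533146, reads 60 bases that span 304 bases of the genome at chr10:126732518-126732821 (mm9, plus strand) and so crosses a splice junction. It is printed here with that of Atf4, the factor upstream of it.
Ddit3 probe: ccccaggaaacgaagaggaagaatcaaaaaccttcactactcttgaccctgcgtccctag
Atf4 probe: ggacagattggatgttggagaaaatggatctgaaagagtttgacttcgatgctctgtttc

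Ddit3 levels were 0.23, 0.47 and 0.44 in Ebf1 virus replicates 1 to 3, against -0.60, -0.76 and -0.47 in control virus replicates 1 to 3. The groups did not overlap, and the gap between them was wider than the range within either. The log2 change was 0.99 ± 0.15 (SE), a 1.98-fold rise, with an adjusted p of 0.00318. With slide as a fixed block, the log2 change was that on the slide with both groups, 0.99, with an adjusted p of 0.0609. Each other slide held 1 group, so the change in this fit, here and below, is Ebf1 replicate 1 minus control replicate 2. The fit leaves 2 residual degrees of freedom. With median scaling, which moved the median of all tested probes to -0.37, the log2 change was 0.68 with an adjusted p of 0.144. That fit gave every member probe the same SE, 0.339, so its p-values, here and below, do not follow the spread at each probe.

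Atf5 is a relative of Atf4 whose translation is raised in the same way, and it acts on mitochondrial protein stress genes and on cell survival. Its probe lies at chr7:52067718-52067777 (mm9, minus strand), and its levels were 3.81, 3.50 and 3.38 with the Ebf1 virus, against 2.44, 2.51 and 2.61 with the control virus. Each Ebf1 virus sample was above each control virus sample. Its log2 change was 1.04 ± 0.16, a 2.06-fold rise, with an adjusted p of 0.00335. It was the only member that also passed with slide as a fixed block, with an adjusted p of 0.0302. The log2 change there, 1.30, is that between the 2 arrays of the slide with both groups. It did not pass with median scaling, where the change was 0.73 and the adjusted p 0.112.

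Atf4, at chr15:80087079-80087138 (mm9, plus strand), is the hub through which eIF2alpha phosphorylation reaches amino acid genes. Its levels were 1.53, 2.27 and 1.97 with the Ebf1 virus, against 2.77, 2.44 and 2.28 with the control virus. The groups did not overlap, but Ebf1 replicate 2 and control replicate 3 were nearly level. The log2 change was -0.57 ± 0.23, with a 95% interval of -1.10 to -0.05 and an adjusted p of 0.113, so it did not pass the test over all probes. With median scaling the change was -0.88 and passed, with an adjusted p of 0.0486. Atf4 passed under no other alternative run.

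Xbp1, the target of Ire1, is the transcription factor that enlarges the ER in secretory cells. Its probe at chr11:5424970-5425029 (mm9, plus strand) is 60 unbroken genomic bases, so it cannot separate the form spliced by Ire1 from the unspliced one if both hold them. Levels were 3.02, 2.48 and 2.36 with the Ebf1 virus, against 2.18, 2.04 and 1.67 with the control virus. The groups did not overlap, with Ebf1 replicate 1 highest and control replicate 3 lowest. Its log2 change was 0.66 ± 0.22 (95% interval 0.14 to 1.17), and the adjusted p was 0.0733. It passed with normexp background correction (0.73, adjusted p 0.0182) and with a variance trend and robust fit (adjusted p 0.0373). Xbp1 passed under no other alternative run. The adjusted p was 0.475 with median scaling (0.35), 0.25 without the filter on dim probes and 0.072 to 0.214 with 1 array left out. Of 5 plasma cell markers, Prdm1 and Tnfrsf17 were above background on no array, and of the 3 tested, Irf4 was called higher. Irf4 was above background on no control virus array, so it was tested only through the Ebf1 virus group, and with normexp correction its call was lost (0.34, adjusted p 0.203). The summed signal of the 5 was 250 to 321 times the 75th percentile with the Ebf1 virus. With the control virus it was 271 to 360 times. Nearly all of it in both groups was Jchain, another of the 5, which was not called. Its mean level was 8.11 with the Ebf1 virus and 8.28 with the control virus.

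**Figure D2:**
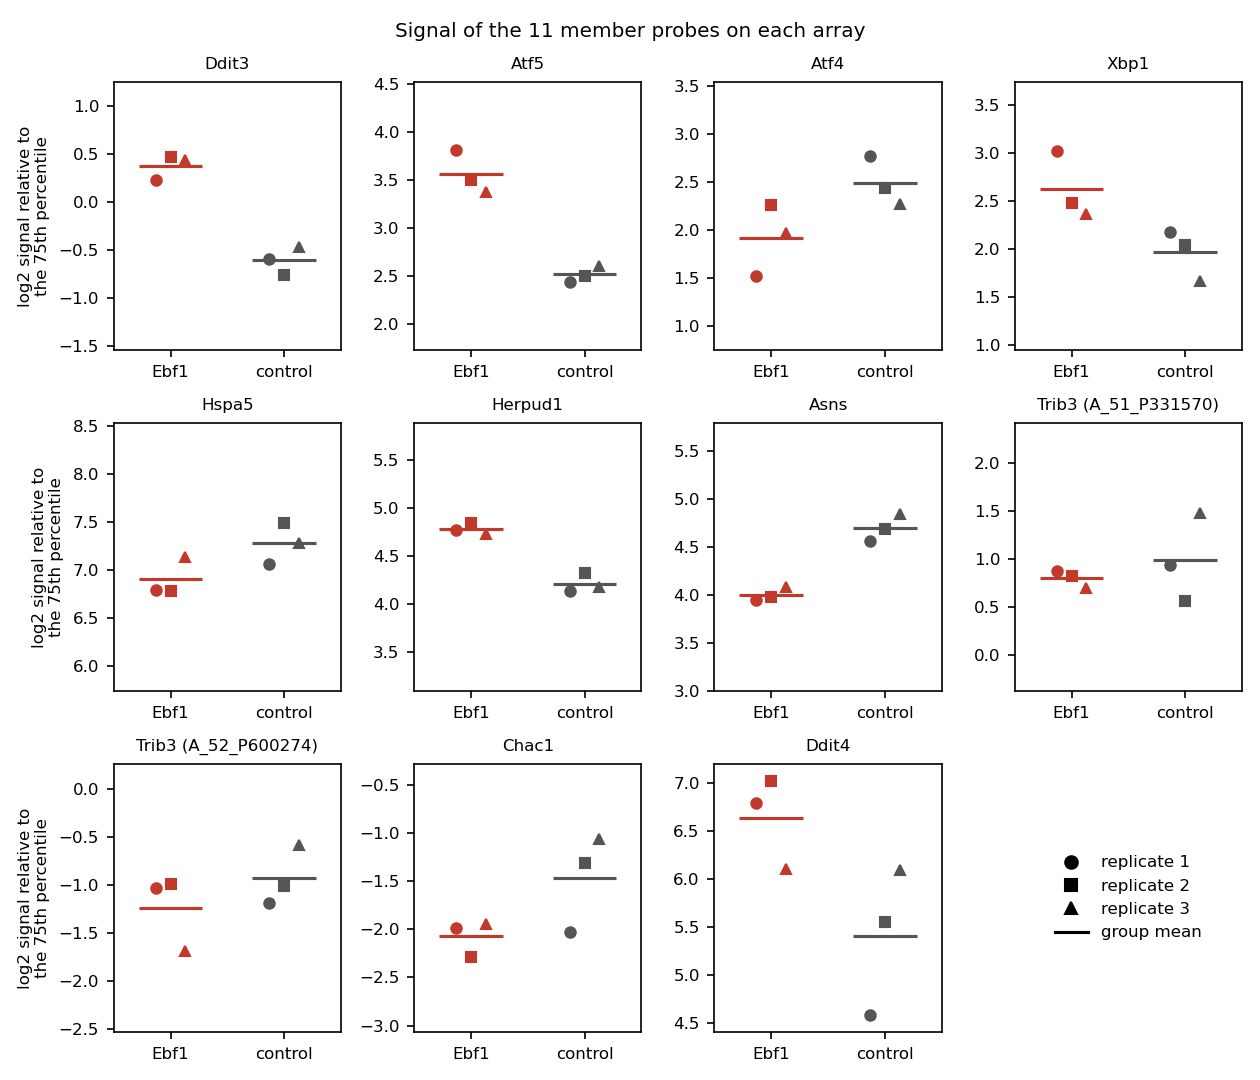
Each panel shows 1 probe, with Ebf1 virus samples left of control virus samples, points for the 3 replicates and a bar for the group mean, on an axis of log2 signal relative to the array's 75th percentile that spans the same range in each panel. Ddit3, Atf5, Herpud1 and Asns show separate groups with little spread, and the control virus samples of Ddit4 spread from 4.58 to 6.10.

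The 2 genes of ER folding and clearance stood on different sides of 0. Hspa5, or BiP, is the main ER chaperone and the classical target of Atf6, with its probe at chr2:34631630-34631689 (mm9, plus strand). Its levels were 6.79, 6.78 and 7.14 with the Ebf1 virus, against 7.06, 7.49 and 7.28 with the control virus. The groups overlapped, Ebf1 replicate 3 being above control replicate 1. Hspa5 changed by -0.37 ± 0.18 on the log2 scale (95% interval -0.78 to 0.04) with an adjusted p of 0.173, and it did not pass under any alternative run.

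Herpud1 is an ER membrane protein that serves the degradation of misfolded proteins, and its probe lies at chr8:96919117-96919176 (mm9, plus strand). Its levels were 4.76, 4.85 and 4.73 with the Ebf1 virus, against 4.13, 4.33 and 4.18 with the control virus. The samples of each group lay close together and the groups did not overlap. Herpud1 changed by 0.57 ± 0.14 on the log2 scale, a 1.48-fold rise, with an adjusted p of 0.0228. Herpud1 lost its call in 5 of the 6 fits that left out 1 array, with adjusted p of 0.0512 to 0.0835, and passed without Ebf1 replicate 1 (adjusted p 0.0389). Slide as a fixed block (0.44, adjusted p 0.312), median scaling (0.26, 0.601), and testing without the filter on dim probes (adjusted p 0.128) also ended it.

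Of the 4 targets of amino acid stress, Asns fell, Ddit4 had the largest fitted change without passing, and Trib3 and Chac1 did not pass. Asns encodes asparagine synthetase, a standard readout of Atf4 activity. Its probe lies at chr6:7625194-7625253 (mm9, minus strand). Asns levels were 3.95, 3.98 and 4.09 with the Ebf1 virus, against 4.56, 4.69 and 4.84 with the control virus. Each Ebf1 virus sample was below each control virus sample. The log2 change was -0.69 ± 0.14, or 1.61-fold lower, with an adjusted p of 0.0129. The call was lost without control replicate 2 (-0.69, adjusted p 0.0536) and without control replicate 3 (-0.62, adjusted p 0.0572). It was also lost without the filter on dim probes (adjusted p 0.0848) and with slide as a fixed block (-0.74, adjusted p 0.146).

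Chac1 encodes an enzyme that degrades glutathione, and its probe lies at chr2:119179990-119180049 (mm9, plus strand). Its levels were -1.98, -2.28 and -1.94 with the Ebf1 virus, against -2.02, -1.31 and -1.06 with the control virus. Control replicate 1 lay among the Ebf1 virus samples and the other control virus samples lay above them. The fitted log2 change was -0.61 ± 0.26 (95% interval -1.20 to -0.01) with an adjusted p of 0.133. Without control replicate 1 it was -0.89 and passed, with an adjusted p of 0.0227, and with median scaling it was -0.92 with an adjusted p of 0.0397. Chac1 passed under no other alternative run.

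Trib3 encodes a pseudokinase that is induced by Atf4 and Ddit3 and holds back Akt signalling. Probe A_51_P331570, at chr2:152163355-152163414 (mm9, minus strand), had levels of 0.87, 0.82 and 0.70 with the Ebf1 virus, against 0.94, 0.57 and 1.48 with the control virus. Probe A_52_P600274, at chr2:152164025-152164084 on the same strand, had -1.04, -0.98 and -1.68 with the Ebf1 virus, against -1.19, -1.01 and -0.59 with the control virus. At both probes the Ebf1 virus samples overlapped the control virus samples, with control replicate 3 highest. The log2 changes were -0.20 ± 0.23 (adjusted p 0.58; 95% interval -0.74 to 0.35) and -0.31 ± 0.24 (adjusted p 0.405; 95% interval -0.87 to 0.26). The sign at the first probe depended on the arrays used, with 0.31 on the slide that holds both groups and 0.05 without control replicate 3.

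Ddit4, or Redd1, restrains the growth kinase complex mTORC1 under stress, and its probe lies at chr10:59412486-59412545 (mm9, minus strand). Its levels were 6.80, 7.02 and 6.10 with the Ebf1 virus, against 4.58, 5.55 and 6.10 with the control virus. The lowest Ebf1 virus sample, replicate 3, and the highest control virus sample, also replicate 3, were level. The standard deviation was 0.48 with the Ebf1 virus and 0.77 with the control virus, wider than at the 10 other probes. The log2 change was 1.23 ± 0.40 (95% interval 0.30 to 2.16), a 2.35-fold difference, with an adjusted p of 0.0651. It passed with normexp correction (1.23, adjusted p 0.0123), with median scaling (0.92, adjusted p 0.0383), with a variance trend and robust fit (adjusted p 0.0442) and without control replicate 3 (1.57, adjusted p 0.0377). Ddit4 passed under no other alternative run. The adjusted p was 0.314 with slide as a fixed block (1.25), 0.225 without the filter on dim probes and 0.166 without Ebf1 replicate 2.

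**Figure D3:**
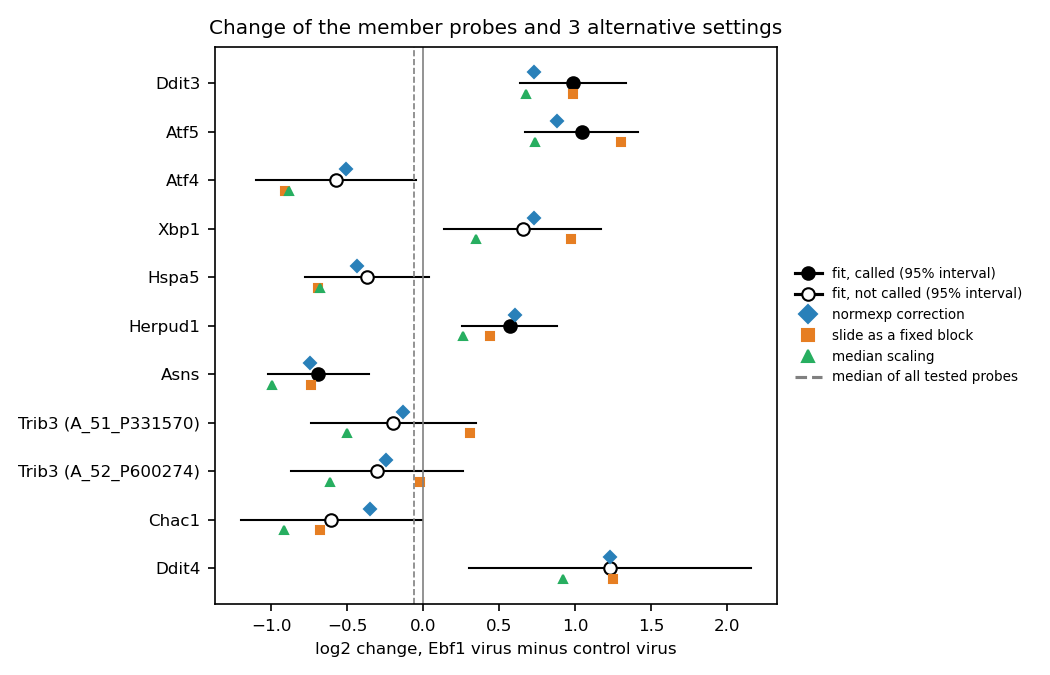
The horizontal axis is the log2 change, Ebf1 virus minus control virus, with 1 line per probe, a circle and 95% interval for the fit (filled where the probe was called), and small markers for 3 alternative settings. Ddit3, Atf5 and Herpud1 lie to the right of 0 and Asns to the left under all 4 settings shown, and Trib3 A_51_P331570 changes side with slide as a fixed block.

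The wider pathways were read from 8 lists of 140 genes that hold the 10 members too, with 1 probe per gene, the tested one of highest mean signal. Of 125 tested genes, 7 rose and 19 fell, and their median log2 change was -0.22. Over all 13836 genes or unnamed sequences tested, 12.6% rose and 11.0% fell, with a median of -0.07. With slide as a fixed block, 5 of the 125 passed (3 higher and 2 lower). Without control replicate 2 the number was 9 and without control replicate 3 it was 10. Without Ebf1 replicates 1, 2 and 3, one at a time, it was 14, 13 and 14.

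Stress transcription factors had the highest median of the 8 lists, 0.34, with 4 of 10 tested genes higher and none lower. Besides Ddit3 and Atf5 these were Cebpb and Nfe2l2. With median scaling 1 was higher and 2 were lower, and with any 1 array left out 3 were higher. Cebpb, a C/EBP factor that pairs with Atf4 and Ddit3, changed by 1.53 ± 0.21 (adjusted p 0.00187), with levels of 5.05, 4.60 and 4.64 with the Ebf1 virus and 2.88, 3.46 and 3.36 with the control virus. Both of its probes passed, and it passed with slide as a fixed block (1.60, adjusted p 0.0276). Nfe2l2, the oxidative stress factor Nrf2, changed by 0.48 ± 0.14 (adjusted p 0.0499), at 1 of its 3 tested probes. Among the sensors and regulators of eIF2alpha, 1 of 13 passed: Eif2s1, which encodes eIF2alpha itself, changed by -0.57 ± 0.16 (adjusted p 0.0432). The median of that list was -0.16, and the list held no call in 5 of the 6 fits that left out 1 array.

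Of 20 tested ER chaperones and folding enzymes, 1 fell and none rose, and the median was -0.14. The one that passed was Dnajb11, an Hspa5 co-chaperone, at -0.48 ± 0.13 (adjusted p 0.039), and none passed with any 1 array left out. Of 14 tested genes of ER-associated degradation and translocation, 2 rose and none fell, and the median was -0.13. These were Herpud1 and Syvn1, the ubiquitin ligase Hrd1, to which Herpud1 protein binds. Syvn1 levels were 7.50, 7.08 and 7.30 with the Ebf1 virus and 5.29, 5.36 and 5.47 with the control virus. It changed by 1.92 ± 0.16 (adjusted p 0.000139), its other probe passed too, and it passed with slide as a fixed block (2.14, adjusted p 0.00648).

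Amino acid response targets fell in 9 of 24 tested cases and rose in none, with a median log2 change of -0.35. Next to Asns, the smallest p-values were those of Slc7a1, an importer of arginine and lysine, Psat1, an enzyme of serine synthesis, Stc2, a secreted glycoprotein, and Slc6a9, a glycine transporter. Slc7a1 changed by -1.001 ± 0.17 (adjusted p 0.00489), with levels of 1.13, 1.56 and 1.58 with the Ebf1 virus and 2.39, 2.50 and 2.39 with the control virus. It passed with slide as a fixed block (-1.36, adjusted p 0.0223). Psat1 changed by -0.87 ± 0.17 (adjusted p 0.0101), Stc2 by -0.96 ± 0.19 (adjusted p 0.0101) and Slc6a9 by -0.86 ± 0.19 (adjusted p 0.0158). The other 4 that fell, named after their values were seen, were Phgdh, Shmt2, Mthfd2 and Slc1a4, at -0.70, -0.63, -0.69 and -0.60. Slc1a4 was called at 1 of its 2 tested probes. The number that fell was 3 without control replicate 2, 3 without control replicate 3 and 1 with slide as a fixed block. It was 5 with replicate number as a block, and 1 of 28 without the filter on dim probes.

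Aminoacyl-tRNA synthetases, which charge tRNAs and many of which Atf4 also regulates, had the lowest median of the 8 lists, -0.42. All 19 tested had a fitted change below 0, though 17 did with quantile normalisation, 15 with slide as a fixed block and 18 without control replicate 2, control replicate 3 or Ebf1 replicate 2. Such counts move with the scaling, and the median of all tested genes was itself -0.07. With median scaling it was -0.37, and all 20 tested ER chaperones and folding enzymes were then below 0 too. Of the 19 synthetases none rose and 4 passed as lower, against 0 without control replicate 2, 0 without control replicate 3 and 1 or 2 without any 1 Ebf1 virus array. The number was 0 with slide as a fixed block or without the filter on dim probes, 2 with quantile normalisation or median scaling, and 9 with a variance trend and robust fit. Mars1 changed by -0.69 ± 0.15 (adjusted p 0.0169), and its other probe passed too. Iars changed by -0.61 ± 0.13 (adjusted p 0.0169) and Lars by -0.49 ± 0.13 (adjusted p 0.0369), each at 1 of its probes, and Farsa by -0.49 ± 0.15 (adjusted p 0.0497), with 2 of its 4 probes called.

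Of 14 tested genes of the pathway of mTORC1, the complex that Ddit4 restrains, 1 passed and the median was -0.09. It was Rps6kb1, the S6 kinase, at -0.77 ± 0.21 (adjusted p 0.0359) at 1 of its 3 tested probes, and no gene of the list passed with any 1 array left out other than control replicate 1. The list of heat shock proteins, most of them cytosolic but with the mitochondrial chaperonins Hspd1 and Hspe1, had a median of -0.35, with 3 of 11 lower and 1 higher. The number lower was 1 without control replicate 2 or 3 and 2 without any 1 Ebf1 virus array. With slide as a fixed block, or without the filter on dim probes, 0 were lower and 0 higher. Hspd1 changed by -0.80 ± 0.16 (adjusted p 0.0101), Dnajb1 by -0.66 ± 0.14 (adjusted p 0.0129) and Hsph1 by -0.59 ± 0.15 (adjusted p 0.0301). Dnajb1 was called at 1 of its 2 tested probes. Bag3, an Hsp70 co-chaperone, changed by 0.97 ± 0.25 (adjusted p 0.0286) at 1 of its 2 probes. The list had no higher call without control replicate 1, control replicate 3, Ebf1 replicate 1 or Ebf1 replicate 3. With normexp correction the calls of Nfe2l2, Eif2s1, Dnajb11, Slc1a4, Lars, Farsa, Hsph1 and Bag3 were lost, with adjusted p of 0.133, 0.0778, 0.0973, 0.0749, 0.0909, 0.115, 0.0561 and 0.0627 in that order.

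**Figure D4:**
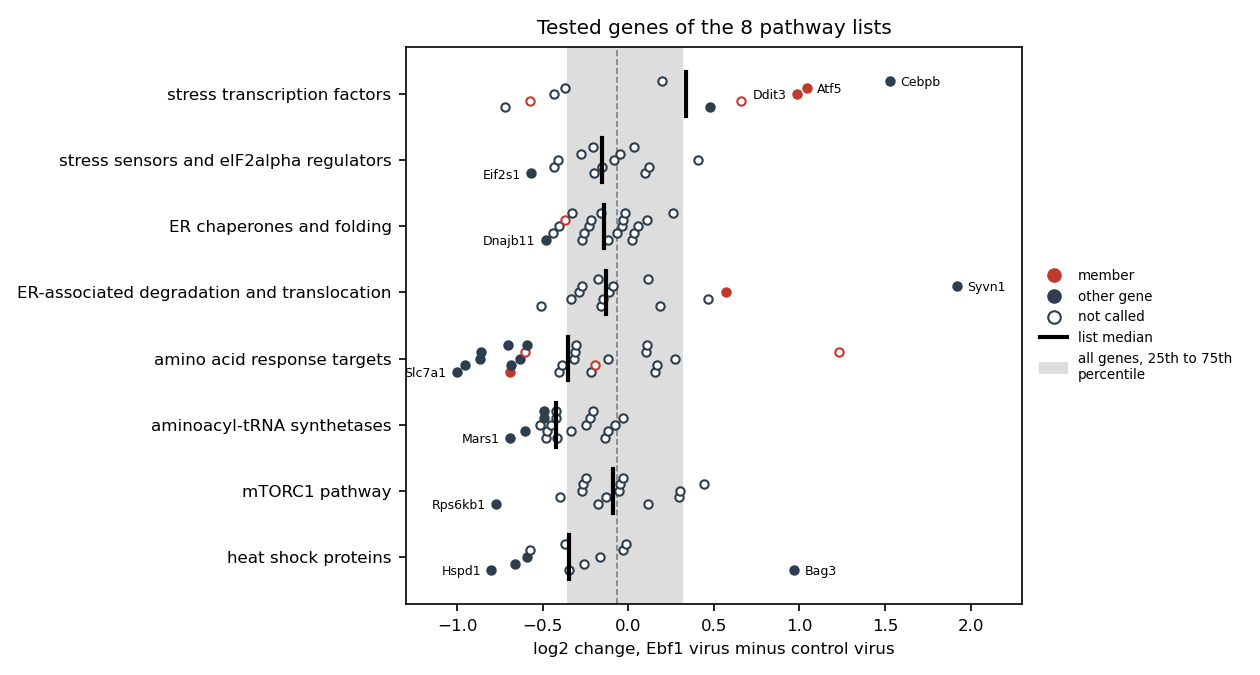
The horizontal axis is the log2 change of each tested gene, Ebf1 virus minus control virus, grouped by list, with filled points for called genes, a bar for the list's median and grey for the 25th to 75th percentile of all tested genes (-0.36 to 0.31). The medians run from -0.42 for aminoacyl-tRNA synthetases to 0.34 for stress transcription factors.

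The genes with the profile nearest to that of Ddit3, the member with the smallest p, were sought by the Euclidean distance of centred log2 levels over the 6 arrays. Among 11427 genes with a RefSeq symbol and a value on every array, members left out, they were Arhgap33 (distance 0.162), Sema6b (0.165) and Bet1l (0.175). Their log2 changes were 1.02 ± 0.15, 1.03 ± 0.14 and 0.96 ± 0.15. Being chosen by profile over the same arrays, they lie close to the change of Ddit3 by selection.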

How the data were processed

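Total RNA of 6 samples was labelled with the dye Cy3 and put on Agilent arrays of 1 colour with 45018 features, 1639 of them controls. Spot intensities on a linear scale are the values deposited by the authors. Agilent Feature Extraction 10.5.1.1 made them with its background subtraction, per the file headers, and probe positions are those of mm9. The deposited whole-series intensities equalled the processed signal within 0.1% at all 45018 features.

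Processed signals were put on the log2 scale, each array's 75th percentile over 43379 non-control features was subtracted, flagged outlier spots were left out and spots of a probe were averaged, giving 41174 probes. A probe was tested when well above background on all 3 arrays of at least 1 group, which kept 20453. Groups were compared with limma 3.58.1 (lmFit, eBayes; R 4.3.3, data.table in version 1.17.8), two-sided. P-values were adjusted by Benjamini-Hochberg over all probes tested, a call being an adjusted p under 0.05, and the fit was tested on simulated data. The number of arrays limits the precision. Symbols were updated through RefSeq accessions (GRCm38.p6), which matched 25097 probes.

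The 10 genes and the lists were chosen with earlier results of these data known. Every member and probe is named, with up to 4 called genes of each list with the smallest p and the 3 nearest profiles to the member with the smallest p. The 4 further amino acid genes and the cell type markers named are outside this rule. Alternatives were normexp correction (offset 50), quantile and median scaling, 2 other filters, replicate number and slide as blocks, a variance trend with robust fit, the deposited table, the mean of a gene's probes, and leaving out each array.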

Additional observations from a re-analysis of the deposited data

How the results depend on the processing

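Over the array, 1996 probes were called without the filter on dim probes, 2168 with slide as a fixed block and 2630 to 3725 with 1 array left out, against 4434. Of the member probes, 2 were called without the filter, 1 with slide as a fixed block and 2 to 4 with 1 array left out, against 4. Of the pathway genes, 6 were called without the filter, 5 with slide as a fixed block and 9 to 20 with 1 array left out, against 26. Trib3 at A_51_P331570 turned to 0.307 with slide as a fixed block and ranged from -0.411 to 0.045 with 1 array left out. Median scaling split the calls over the array into 1256 higher and 2642 lower, against 2349 and 2085. It split those of the member probes, which all had the same SE in that fit, into 1 higher and 3 lower, against 3 and 1. Replicate numbers are shared by the groups, but the labels do not say whether they pair the samples. Deviations of samples of the same number had r of -0.169, -0.247 and 0.095, too few values to decide it. The highest r between the groups was 0.29, for Ebf1 replicate 1 and control replicate 2, which share a slide. With the replicate block, 3095 probes, 3 member probes and 13 pathway genes (1 aminoacyl-tRNA synthetase, against 4) were called, and Herpud1 had an adjusted p of 0.0632. Quantile normalisation changed no member's call. Slide as a random block, the filter on all 6 arrays and the deposited table changed none either, but these lie close to the fit used above. The consensus correlation within slides was 0.0106, every member probe passes that filter, and the deposited table holds the same signals. The member probes were above background on all 6 arrays, and the causes of the lost calls were not tested.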
